A study of Homo sapiens with 8 samples.

Results

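The 9p21 tumour suppressor locus is described here by 6 genes chosen by position, CDKN2A, CDKN2B, CDKN2B-AS1, MTAP, KLHL9 and MLLT3. All 6 were among the 63241 gene rows of the deposited count table, 1 row each. RNA was sequenced from 8 libraries whose labels give their source as HSC3, a cell line from a human oral squamous cell carcinoma. By their labels 4 libraries came from cells transfected with si-Col1a1, an siRNA against COL1A1 (called knockdown), and 4 from cells given the non-targeting si-NC (called control), each with 100 pmol of siRNA by lipid transfection and collected after 48 hours. The labels name no other alteration in either group. Nothing in them says that replicates were separate cultures. Each p-value below rests on library-to-library spread alone, which may be technical in part and takes in the differences in cell type markers given below. The question put to the locus was whether any library lacks its RNA.

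CDKN2A encodes a pair of tumour suppressors from separate first exons: p16INK4a, which inhibits the cyclin D kinases CDK4 and CDK6 and so keeps the RB protein active, and ARF, which inhibits the ubiquitin ligase MDM2. CDKN2B, next to it, encodes p15INK4b, another inhibitor of the same kinases, and the noncoding antisense RNA CDKN2B-AS1 (ANRIL) runs across CDKN2B from a start beside that of ARF. The locus is often deleted or silenced by promoter methylation in squamous cell carcinomas of the mouth, and MTAP, the methionine salvage enzyme next to CDKN2A, is often lost in the same deletion.

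On GRCh38 (the same assembly as hg38, gene positions from GENCODE 29) MLLT3 occupies 20341665 to 20622543 of chromosome 9 (minus strand), KLHL9 21329671 to 21335380 (minus), MTAP 21802543 to 21937651 (plus), CDKN2A 21967753 to 21995301 (minus), CDKN2B-AS1 21994778 to 22121097 (plus) and CDKN2B 22002903 to 22009363 (minus). The 6 genes span 1.78 Mb, and their identifiers are ENSG00000171843.17 (MLLT3), ENSG00000198642.7 (KLHL9), ENSG00000099810.21 (MTAP), ENSG00000147889.18 (CDKN2A), ENSG00000240498.9 (CDKN2B-AS1) and ENSG00000147883.12 (CDKN2B). CDKN2A and CDKN2B-AS1 overlap at their starts, and 341 exonic bases (7.88% of the CDKN2A exons) belong to both on opposite strands. The strand setting of the counting is not given in the sources used here, so reads from those bases cannot be assigned to one of the pair. CDKN2B and KLHL9 share no exonic base with another gene, while 9.58% of the exonic bases of MTAP are shared, among others with AL359922.1, a gene that runs from MTAP into the antisense region. Counts per gene add up all transcripts, so p16INK4a and ARF are not separated.

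The start regions of CDKN2A and CDKN2B are shown because these are the genes of the locus whose RNA differed most between libraries, and that of MTAP because it lies beside them and differed less. Each window is RefSeq sequence of GRCh38.p14 from 250 bases before to 50 bases after a transcript start, written 5′ to 3′ on the gene's strand, with every CG dinucleotide (the site of DNA methylation, the same on both strands) in capitals.
CDKN2A start of p16INK4a, chr9:21974808-21975107, minus strand: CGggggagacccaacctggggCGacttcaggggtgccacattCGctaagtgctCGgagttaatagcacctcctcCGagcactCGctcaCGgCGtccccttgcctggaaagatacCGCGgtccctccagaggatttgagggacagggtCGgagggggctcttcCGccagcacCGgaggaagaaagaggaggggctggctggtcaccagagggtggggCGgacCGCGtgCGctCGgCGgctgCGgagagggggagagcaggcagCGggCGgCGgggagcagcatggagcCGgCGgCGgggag
CDKN2A start of ARF, chr9:21995275-21995574, minus strand: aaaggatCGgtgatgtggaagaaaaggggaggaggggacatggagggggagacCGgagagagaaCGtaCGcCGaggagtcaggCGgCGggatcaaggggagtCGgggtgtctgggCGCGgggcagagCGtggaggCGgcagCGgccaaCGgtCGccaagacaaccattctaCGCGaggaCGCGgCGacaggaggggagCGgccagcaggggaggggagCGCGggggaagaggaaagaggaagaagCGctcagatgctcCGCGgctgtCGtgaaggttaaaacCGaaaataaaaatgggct
CDKN2B, chr9:22009256-22009555, minus strand: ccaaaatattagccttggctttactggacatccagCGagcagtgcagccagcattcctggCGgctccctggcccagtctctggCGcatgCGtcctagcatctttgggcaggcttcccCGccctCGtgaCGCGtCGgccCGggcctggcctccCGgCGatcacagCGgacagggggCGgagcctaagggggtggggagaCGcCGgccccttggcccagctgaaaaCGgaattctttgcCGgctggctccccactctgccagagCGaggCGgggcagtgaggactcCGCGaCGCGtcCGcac
MTAP, chr9:21802386-21802685, plus strand: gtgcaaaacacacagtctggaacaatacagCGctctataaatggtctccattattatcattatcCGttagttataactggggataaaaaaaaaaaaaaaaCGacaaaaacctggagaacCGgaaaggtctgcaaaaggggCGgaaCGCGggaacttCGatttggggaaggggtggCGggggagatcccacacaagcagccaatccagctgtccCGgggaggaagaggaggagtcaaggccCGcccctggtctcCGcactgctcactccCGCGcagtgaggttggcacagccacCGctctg
The windows held 26, 28, 25 and 15 CG dinucleotides in this order. As many or more were found in 30.1%, 26.2%, 32.0% and 48.9% of all 35116 RefSeq start windows of this length, whose median was 14. Methylation was not measured in this series.

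No library lacked counts for any of the 6 genes, from whichever cell type in the RNA. All 48 values were above 0, and the lowest was 13 counts. In control 1 and control 3, CDKN2A had 14 counts each and CDKN2B-AS1 had 14 and 13. Reads from their 341 shared exonic bases cannot be assigned to either gene. Whether those libraries held RNA of each of the pair is therefore not settled. Of genes with a mean level within 2-fold of that of CDKN2A, 4.58% had 0 counts in at least 1 library, and of those within 2-fold of CDKN2B-AS1, 12.2%. The levels of CDKN2A and CDKN2B nonetheless differed by 96-fold and 170-fold between the highest and the lowest library, while those of MTAP, KLHL9 and MLLT3 differed by 7.53-fold, 4.09-fold and 4.66-fold. The coefficient of variation over the 8 libraries was 155% for CDKN2A and 123% for CDKN2B, against a median of 59.1% over the 21192 genes tested, and 3.44% and 9.15% of tested genes varied as much.

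Before the members, the libraries themselves need stating. Total counts ran from 30684584 to 61795990. COL1A1, the siRNA target, stood at 367.6, 122.7, 300.9 and 155 CPM (a gene's counts scaled to 1e6 counts in the library) in knockdown 1 to 4 and at 88.95, 8183, 475.9 and 689.5 CPM in control 1 to 4, so the groups overlapped and 1 control library, the lowest of the 8, lay below all knockdown libraries. A list of 12 squamous epithelial markers, all of them detected in every library, took 14.2%, 0.196%, 12.5% and 2.85% of counts in knockdown 1 to 4 and 0.077%, 6.34%, 1.04% and 6.01% in control 1 to 4. Skeletal muscle genes (17 measured, all above 0 in every library) took from 0.00557% to 4.93% of counts in knockdown and from 0.0116% to 15.6% in control, and salivary gland genes took 13.5% in knockdown 2 and 9.21% in control 1 but at most 0.0147% elsewhere. Muscle and salivary gland RNA at these shares goes against a label of 1 carcinoma line, so knockdown and control below mean the libraries so labelled, and a level may come from any cell type in the RNA. Fewer cells of a type and less RNA per cell cannot be told apart.

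CDKN2A stood at 13.9, 0.489, 13.3 and 0.904 CPM in knockdown 1 to 4, and at 0.381, 0.518, 0.434 and 36.5 CPM in control 1 to 4. High and low libraries were found under both labels: knockdown 1, knockdown 3 and control 4 held 837, 486 and 1900 counts, and the other 5 held 14 to 33. With 14 counts in control 1 and control 3, the exact Poisson 95% interval was 7.65 to 23.5 counts, so the order among the lowest libraries (control 1, control 3, knockdown 2, control 2) lies within counting error. Such intervals cover counting error only.

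CDKN2B was the most abundant member per length in knockdown 1, knockdown 3, knockdown 4 and control 4. It stood at 202.9, 7.07, 387.5 and 86.1 CPM in knockdown 1 to 4 and at 2.28, 3.48, 20.7 and 184.5 CPM in control 1 to 4. The 3 libraries high in CDKN2A were also the 3 highest in CDKN2B, and knockdown 4 came next. The groups overlapped, since knockdown 2 lay below control 3 and control 4 lay above knockdown 4.

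CDKN2B-AS1, the antisense RNA, is known to bind Polycomb proteins that repress the locus. It stood at 3.12, 1.86, 3.89 and 0.713 CPM in knockdown 1 to 4 and at 0.381, 5.74, 0.403 and 5.71 CPM in control 1 to 4. Its 2 highest libraries, control 2 and control 4, did not differ beyond counting error (355 and 297 counts, intervals 5.16 to 6.37 and 5.08 to 6.4 CPM). They were far apart in the genes that it overlaps: CDKN2A was at 0.518 CPM in control 2 and 36.5 in control 4, and CDKN2B at 3.48 and 184.5 CPM.

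**Figure D1:**
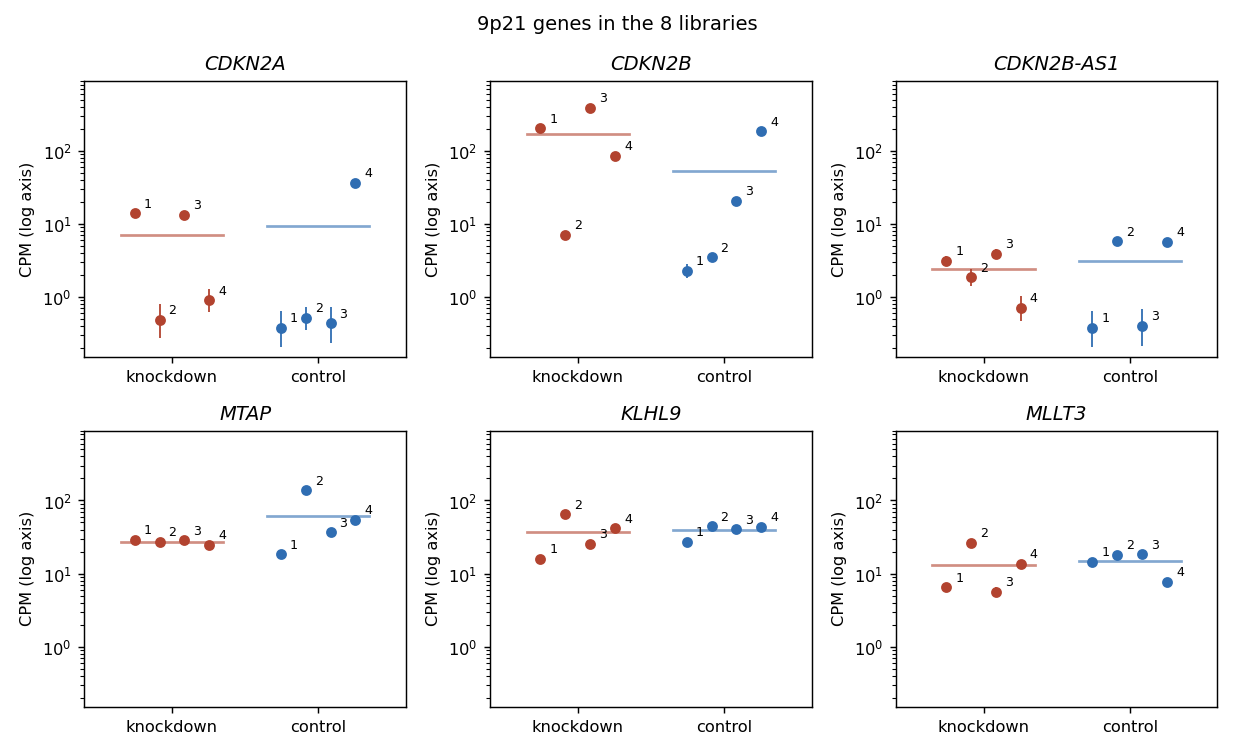
Level of each of the 6 genes in CPM of all counts (log axis), knockdown libraries on the left and control libraries on the right of each panel, numbered by replicate, with exact Poisson 95% intervals as bars (often smaller than the point) and the group mean as a line. CDKN2A and CDKN2B ran over 96-fold and 170-fold across the 8 libraries, with high and low libraries under both labels, and MTAP stood highest in control 2 at 138 CPM.

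MTAP, which recycles the methylthioadenosine left by polyamine synthesis, was nearly even in the knockdown libraries, at 29.1, 27.3, 28.4 and 24.9 CPM. In control 1 to 4 it stood at 18.3, 138, 37.1 and 54.4 CPM. Control 2 thus held the most MTAP RNA of all libraries (8527 counts), with 32 counts of CDKN2A, whose nearer end lies 30102 bases away. There were 3.75 CDKN2A counts per 1000 MTAP counts in control 2, the lowest of the 8 libraries, against 671 in control 4, 479 in knockdown 1, 470 in knockdown 3 and 11.7 to 36.3 in the other 4.

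KLHL9, which lies among the type I interferon genes, and MLLT3, beyond them, varied least. KLHL9, an adaptor of a CUL3 ubiquitin ligase that acts on Aurora B in mitosis, stood at 15.9, 65, 25.8 and 42 CPM in knockdown 1 to 4 and at 27.5, 44.2, 40.6 and 43.6 CPM in control 1 to 4. MLLT3 (AF9), a chromatin reader of the super elongation complex and a fusion partner of MLL in leukaemia, stood at 6.53, 26.3, 5.65 and 13.7 CPM in knockdown 1 to 4 and at 14.6, 18, 18.5 and 7.73 CPM in control 1 to 4. The 3 lowest MLLT3 levels were those of knockdown 3, knockdown 1 and control 4, the libraries with the 3 highest CDKN2A levels. These 3 were also the libraries with the least muscle RNA (at most 0.0116% of counts, against 0.459% to 15.6% in the other 5), and its part in the MLLT3 level was not tested.

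Per kilobase of exon, the order of the genes changed with the library. CDKN2B led in knockdown 1 (50 CPM per kb), knockdown 3 (95.5), knockdown 4 (21.2) and control 4 (45.5), KLHL9 led in knockdown 2 (11.4), control 1 (4.81) and control 3 (7.12), and MTAP led in control 2 (9.44). CDKN2A was the second of the 6 in control 4 (8.44 CPM per kb) and in knockdown 1 (3.21), and the last in knockdown 2 (0.113) and in control 2 (0.12).

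CDKN2B was low for its squamous share in control 2. Relative to the summed counts of the 12 squamous markers, a ratio chosen after the data had been seen, CDKN2B stood at 1430, 3610, 3110 and 3020 counts per 1e6 squamous counts in knockdown 1 to 4 and at 2970, 54.8, 1990 and 3070 in control 1 to 4. The 7 libraries other than control 2 thus lay within 2.52-fold of each other, although their squamous share ran from 0.077% to 14.2% of counts. Control 2 lay 26.1-fold below the lowest of them, with 215 CDKN2B counts beside 3920135 counts of squamous markers. Its squamous markers included KRT5, a basal keratin, at 16800 CPM and TP63, the squamous master regulator, at 334.4 CPM, against 14190 and 643.8 CPM in control 4. The median of the other 7 over control 2 was 55 with the 12 markers, and 27.5, 71, 52.9 and 31.5 with TP63 alone, KRT5 alone, CDH1 (E-cadherin) alone and the 7 markers that are not keratins. Control 2 was the lowest library with each of these denominators. The narrow range of the other 7 did depend on the denominator: it was 7390 to 27100 per 1e6 counts of the non-keratin markers, 3560 to 33700 per 1e6 of KRT5, 15900 to 631000 per 1e6 of CDH1 and 64100 to 1690000 per 1e6 of TP63. The contrast concerns 1 library, has no replicate and was given no test. RNA counts do not give DNA copy number.

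CDKN2A did not keep such a ratio. Per 1e6 squamous counts it stood at 97.9, 249, 107 and 31.7 in knockdown 1 to 4 and at 494, 8.16, 41.7 and 608 in control 1 to 4. Among the 7 other libraries it varied by 19.2-fold, and control 2 lay 3.88-fold below the lowest of them. With TP63 as the denominator control 3 and not control 2 was the lowest. MTAP in control 2, at 2180 per 1e6 squamous counts, lay inside the range of the other 7 (205 to 23800), as did CDKN2B-AS1 at 90.6 (22 to 947). These ranges were wide, at 116-fold and 43.1-fold. Their highest values fell in control 1 and knockdown 2, the libraries of smallest squamous share, so lying inside them shows little. In control 4, nearest to control 2 in squamous share, MTAP stood at 906 and CDKN2B-AS1 at 95.

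**Figure D2:**
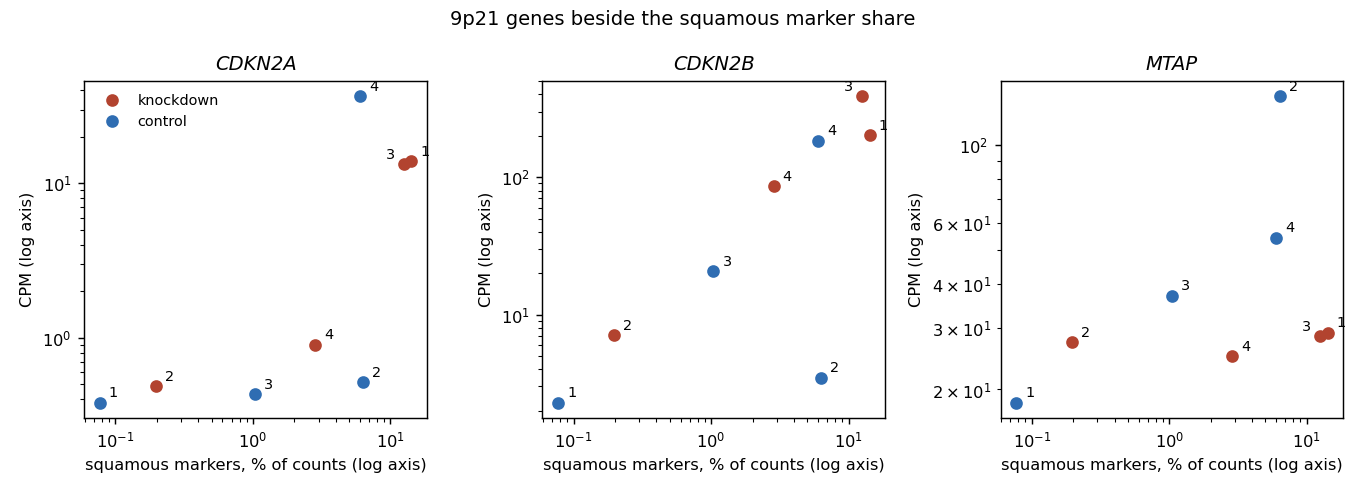
CDKN2A, CDKN2B and MTAP in CPM against the share of counts in 12 squamous markers (both axes log), 1 point per library, numbered by replicate, knockdown in red and control in blue. Among the 7 libraries other than control 2, CDKN2B is lowest where the squamous share is lowest and the 2 largest shares go with the 2 highest levels, in the opposite order. Control 2, with 6.34% of squamous counts, stands at 3.48 CPM of CDKN2B, 0.518 CPM of CDKN2A and 138 CPM of MTAP.

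Genes on either side of the locus were detected in every library too. Of 24 listed neighbours between MLLT3 and ELAVL2, 7 exceeded 1 CPM in at least 1 library (FOCAD, HACD4, MIR31HG, IFNE, DMRTA1, LINC01239 and ELAVL2). None of these 7 was at 0 in any library, and 0 of the 7 were called between the labels, with 1 fitted higher and 6 lower (median log2 fold change -0.55). Over all genes tested, 0% were called and 46.8% were fitted higher (median -0.05). The 15 type I interferon genes other than IFNE were nearly silent, with 9 at 0 in all libraries and 33 counts in all over the 8. FOCAD, a large gene beside MLLT3, stood at 31.4, 68.6, 52.4 and 51.9 CPM in knockdown 1 to 4 and at 52.1, 80.7, 58.3 and 102.9 CPM in control 1 to 4. MIR31HG, the host transcript of the microRNA miR-31, ran over 118-fold, from 0.261 CPM in knockdown 2 to 30.7 in control 2. It stood at 6.54, 0.261, 9.30 and 1.67 CPM in knockdown 1 to 4 and at 0.816, 30.7, 0.372 and 26.9 CPM in control 1 to 4. Control 2 therefore held the most MIR31HG, MTAP, HACD4 (35.2 CPM) and IFNE (3.09 CPM) of the 8 libraries, which lie on the MLLT3 side of CDKN2A. IFNE lies inside the span of MIR31HG, and whether its few counts are separate from those of MIR31HG was not tested. Other genes of the MLLT3 side peaked elsewhere, FOCAD in control 4, and KLHL9 (65 CPM) and MLLT3 (26.3 CPM) in knockdown 2. On the CDKN2B side, CDKN2B-AS1 (5.74 CPM) and LINC01239 (1.84 CPM, against 1.74 in control 1, within counting error) were also highest in control 2, and DMRTA1, a transcription factor gene, was at 15.3 CPM there, within the range of the other libraries (0.329 to 25.4). ELAVL2 was highest in knockdown 1, at 3.95 CPM against 2.36 in control 2.

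For the window as a whole, log2(CPM + 1) of each gene was set against its median over the 8 libraries, with no test. The median over the 26 genes with a mean of at least 0.1 CPM was -0.02, 0.04, 0.00 and -0.06 in knockdown 1 to 4 and -0.14, 0.43, -0.16 and 0.06 in control 1 to 4. Over the 1012 other genes of chromosome 9 it lay between -0.13 and 0.11. Several of the 26 lie inside a larger gene of the window, such as IFNE and SNORD39 in MIR31HG and TUBB8P1 in MTAP. Whether they hold reads of the larger gene was not tested, so the 26 need not be separate readings. Control 2 was the library with the highest window, and CDKN2B, at -3.28, was its lowest gene there. Control 1, with the lowest squamous share, had CDKN2B at -3.73. With genes of at least 1 CPM, control 2 stood at 0.98 and control 4 at 0.85.

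**Figure D3:**
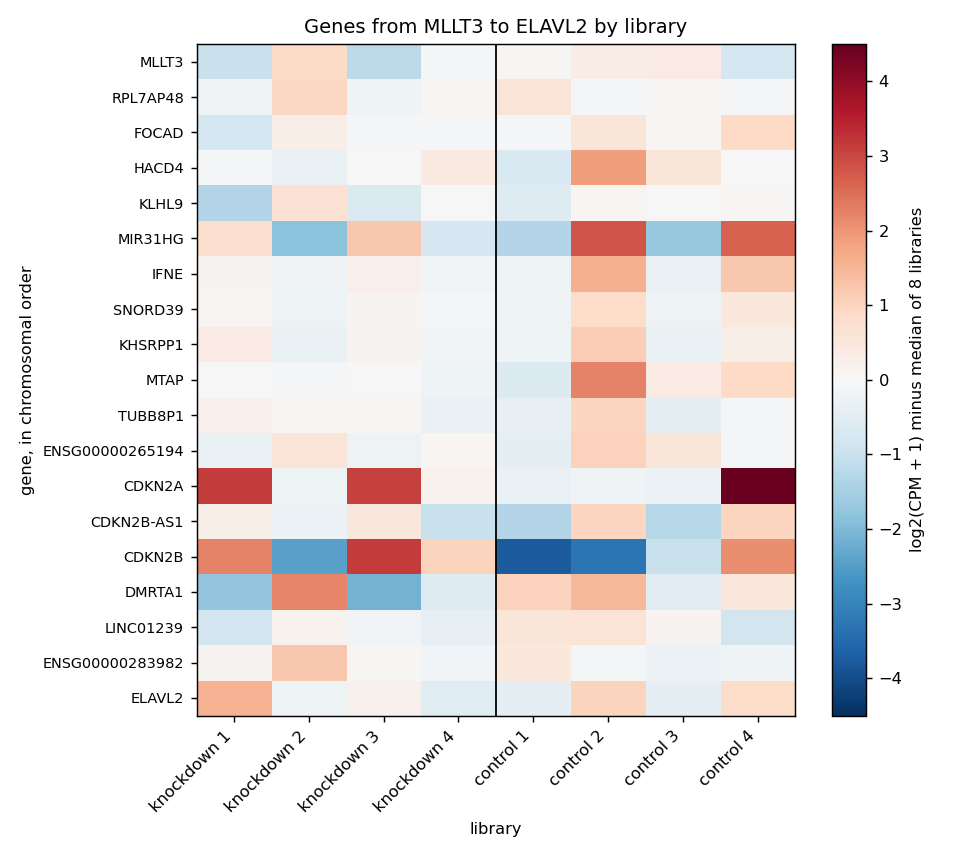
Deviation of log2(CPM + 1) from the median of the 8 libraries for the window's genes that reach 1 CPM in some library, in chromosomal order from MLLT3 at the top to ELAVL2 at the bottom, knockdown libraries left of the line and control libraries right of it. In control 2 most genes on both sides lie above 0, such as MTAP at 2.23, CDKN2B-AS1 at 0.97 and DMRTA1 at 1.51, while CDKN2B stands at -3.28 and CDKN2A at -0.16.

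Between the labels, none of the 6 genes passed the test. Knockdown was compared with control by edgeR's quasi-likelihood test over all genes, and a gene was called at a p under 0.05 after Benjamini-Hochberg adjustment. It called 0 of 6 members, against 0% of the 21192 genes tested, and 0 of 6 had an unadjusted p under 0.05, against 4.78%. The CPM values of the groups overlapped for all 6 members and were separate for 2.35% of tested genes. DESeq2 also called 0 of 6, against 0.588% of the genes it tested, and limma-voom called 0.

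The 4 knockdown libraries averaged 170.9 ± 165.3 CPM of CDKN2B (SD) and the 4 control libraries 52.75 ± 88.22 CPM. The log2 fold change was 2.12 (SE 1.52, edgeR adjusted p = 0.981). Without control 4 the log2 fold change was 4.78, and without knockdown 3 it was 1.16. With the muscle share as a covariate it was also 1.16. Of the 12 squamous markers 11 were fitted higher in knockdown (median log2 fold change 0.78), with 0 called. Over all genes tested, 46.8% were fitted higher (median -0.05) and 0% were called. The part of the squamous share in the CDKN2B fold change was not tested. For MTAP the averages were 27.42 ± 1.80 CPM (SD) in the 4 knockdown libraries and 61.95 ± 52.79 CPM in the 4 control libraries. Its log2 fold change of -0.92 (SE 0.54, edgeR adjusted p = 0.981) was -0.19 without control 2.

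CDKN2A averaged 7.16 ± 7.47 CPM (SD) over the 4 knockdown libraries and 9.46 ± 18.04 CPM over the 4 control libraries. Its log2 fold change was 0.01 (SE 1.68, edgeR adjusted p = 1.0), and its sign rested on single libraries and on the scaling, with 4.38 without control 4, -0.58 without knockdown 3 and -0.40 when scaled by library totals alone. CDKN2B-AS1 stood at -0.01 (SE 1.01), or 0.02 with RLE factors, KLHL9 at 0.05 (SE 0.356), or -0.06 with library totals, and MLLT3 at -0.11 (SE 0.476). The median over the 6 genes was 0.00, against -0.05 over all genes tested. Without the 4 libraries with over 1% of muscle or gland counts, which leaves knockdown 1 and 3 and control 2 and 4, the log2 fold change was 2.11 for CDKN2B, -0.01 for CDKN2A, -0.23 for CDKN2B-AS1, -1.27 for MTAP, -0.59 for KLHL9 and -0.61 for MLLT3, with 0 of 6 called against 0% of the genes tested.

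**Figure D4:**
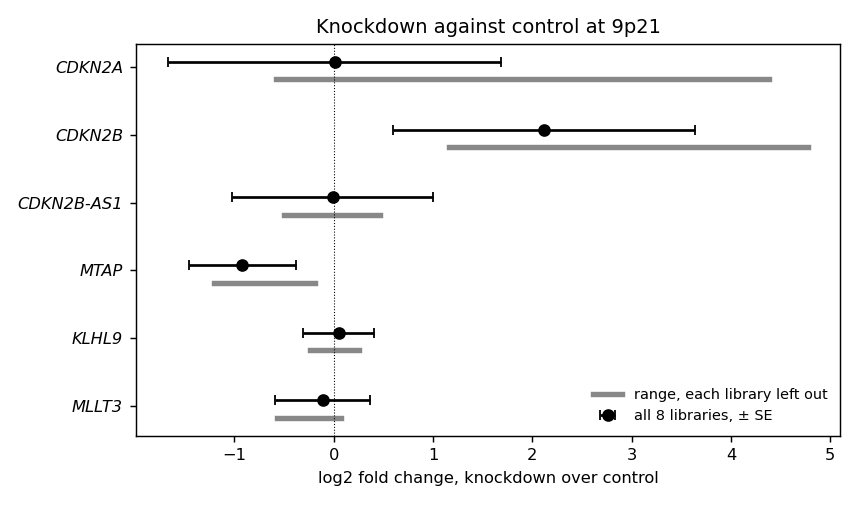
Log2 fold change of knockdown over control for the 6 genes by edgeR (points, with SE as bars) and the range of the fold change when each library is left out in turn (grey lines). The SE exceeds the fold change for CDKN2A, CDKN2B-AS1, KLHL9 and MLLT3, and the CDKN2A range runs from -0.58 to 4.38.

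Ratios within a library do not depend on the scaling. The log2 ratio of CDKN2A to MTAP averaged -3.17 ± 2.45 (SD) over the knockdown libraries and -5.13 ± 3.21 over the control libraries, 4 of each, a difference of 1.96 (exact two-sided permutation p = 0.314, adjusted p = 0.314 over 2 ratios). The log2 ratio of CDKN2A to CDKN2B averaged -4.77 ± 1.28 (SD) over the same knockdown libraries and -3.28 ± 1.51 over the control libraries, a difference of -1.49 (exact two-sided permutation p = 0.2, adjusted p = 0.314). The smallest p that 70 assignments allow is 0.0286.

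The genes whose log2(CPM + 1) was most like that of a member over the 8 libraries were sought among 13851 named genes whose mean CPM was at least 1 on the log2 scale, as a description. For CDKN2A these were LINC02972, LINC01160, RUNDC3A, DNMT3B (a de novo DNA methyltransferase) and LIPG (endothelial lipase), with Pearson r of 0.967, 0.957, 0.952, 0.952 and 0.948. For CDKN2B they were DHRS4, SMAP1, CKMT1B, ATP10B and KRT1 (a suprabasal keratin), with r of 0.967, 0.939, 0.936, 0.934 and 0.925. KRT1 stood at 6420, 5.67, 3530 and 105 CPM in knockdown 1 to 4 and at 0.381, 1.75, 17.6 and 79.7 CPM in control 1 to 4. It was chosen for its likeness to CDKN2B over the same libraries. Its low level in control 2 is therefore no separate observation. For MTAP they were FAP and POSTN, genes of activated fibroblasts, MYO9B, SPN and the siRNA target COL1A1, with r of 0.988, 0.984, 0.978, 0.976 and 0.975. The libraries share the differences in cell type markers given above, and 25, 21 and 115 genes reached an r of 0.9 with CDKN2A, CDKN2B and MTAP. Fibroblast markers (10 genes) took 1.3% of counts in control 2, against 0.0398% to 0.104% in knockdown and 0.0972% to 0.363% in the other 3 control libraries. Of these markers COL1A2, COL3A1 and COL6A3 were highest in control 2 (5108, 5116 and 1595 CPM), but DCN was not. DCN stood at 42.8, 204.3, 27.5 and 209.2 CPM in knockdown 1 to 4 and at 253.9, 151.2, 1271 and 39.5 CPM in control 1 to 4. All 10 fibroblast markers were fitted lower in knockdown (median log2 fold change -1.89), with 0 called and 6 at an unadjusted p under 0.05. Over all genes tested, 46.8% were fitted higher and 4.78% had such a p. All 17 muscle genes were fitted lower as well (median -1.89). The part of either list in the MTAP level was not tested. Without control 2 the r of MTAP fell to between 0.898 and 0.949 for these 5 genes.

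For the genes that p16INK4a and p15INK4b act through, and for the other partner lists below, 0 called genes is no more than the 0% called over all genes tested, and their counts are set beside 46.8% of all genes fitted higher. Of 21 genes of the RB axis (cyclin D kinases, cyclins, RB proteins, E2F factors and other inhibitors), 10 were fitted higher and 11 lower in knockdown, with 0 called and a median log2 fold change of -0.02. CDK4, the first target of both inhibitors and the gene of smallest p here, stood at 37.7, 22.2, 18.5 and 26.8 CPM in knockdown 1 to 4 and at 22.8, 79.9, 25.9 and 88.7 CPM in control 1 to 4 (log2 fold change -0.83, SE 0.502). The log2 fold change of CDK2 was -0.63 (SE 0.552), and that of CDKN1A, another inhibitor of cyclin-dependent kinases, 0.88 (SE 0.783). RB1, named for its role, stood at 84.7, 60.2, 67.1 and 47.8 CPM in knockdown 1 to 4 and at 24.2, 70.8, 55.1 and 87.1 CPM in control 1 to 4. RB1 RNA was thus present in each library, and control 2 and control 4, far apart in CDKN2A, were close in CDK4 and RB1. E2F1, a factor released from RB, stood at 9.87, 2.80, 4.28 and 4.11 CPM in knockdown 1 to 4 and at 0.979, 6.20, 4.03 and 10.1 CPM in control 1 to 4.

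On the ARF side MDM2, the ubiquitin ligase that ARF inhibits, stood at 109.1, 101.1, 146.9 and 90.5 CPM in knockdown 1 to 4 and at 61.5, 200.0, 124.5 and 88.7 CPM in control 1 to 4. Its groups overlapped, and the highest and the lowest library were both control libraries (log2 fold change 0.19).

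For the partners of MTAP, 15 genes of methionine salvage, polyamine synthesis and the PRMT5 complex were measured, with 4 fitted higher, 11 lower and 0 called (median -0.16). ODC1, the first enzyme of polyamine synthesis, had a log2 fold change of 1.13 (SE 0.621), SMS, spermine synthase, one of -0.81 (SE 0.526) and MRI1, the next enzyme of salvage after MTAP, one of 0.56 (SE 0.366). PRMT5, the arginine methyltransferase that methylthioadenosine inhibits, stood at 33.8, 16.1, 20.9 and 29.5 CPM in knockdown 1 to 4 and at 18.7, 34.6, 28.3 and 62.4 CPM in control 1 to 4.

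The remaining partner lists held 0 called genes as well. In the elongation complex of MLLT3, 10 of 13 genes tested were fitted higher (median 0.28), and the genes of smallest p were ELL2 at 0.86 (SE 0.447), EAF1 at 1.11 (SE 0.582) and AFF3 at 1.25 (SE 1.146). Among 7 CUL3 and KLHL genes the median was 0.07, with KLHL13, the partner of KLHL9, at -1.18 (SE 0.706) and 0.631 CPM in knockdown 3 against 7.34 to 8.17 CPM in the other 3 knockdown libraries. UBE2M and CUL3 followed by p, at -0.24 and 0.13. Of 11 Polycomb genes 4 were fitted higher and 7 lower (median -0.17), with CBX7, a Polycomb reader known to repress CDKN2A, at -1.16 (SE 0.84), BMI1 at -0.67 and EZH2 at 0.68. CBX7 stood at 4.82, 43, 6.83 and 24.1 CPM in knockdown 1 to 4 and at 87.9, 16.5, 52.7 and 10.1 CPM in control 1 to 4, so that its 3 lowest libraries, knockdown 1, knockdown 3 and control 4, were the 3 highest in CDKN2A. Muscle genes were at or under 0.0116% of counts in those 3 libraries and at 0.459% to 15.6% in the other 5, and their part in the CBX7 level was not tested. BMI1 and EZH2 did not share the order of CBX7. BMI1 was lowest in knockdown 3 (6.03 CPM) but highest in control 4 (43.9 CPM), where CDKN2A was highest. EZH2 was lowest in control 1 (2.50 CPM) and highest in control 3 (21.1 CPM), both low in CDKN2A. Of 12 proliferation genes 5 were fitted higher and 7 lower (median -0.01), with MCM2 at -0.43, PCNA at -0.24 and MKI67 at 0.45.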

How the data were processed

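Libraries of RNA from cells labelled HSC3 (4 knockdown, 4 control) were used. The authors deposited 1 table of whole-number read counts per gene, without normalisation. The submitters' processing notes name hg38, STAR, Subread and featureCounts. The sources used here state no version, annotation or strandedness. The labels give polyA RNA as the molecule, while their extraction text describes rRNA depletion. Column names write KO where titles write KD, and columns were paired with titles by condition and replicate. Gene symbols were matched by Ensembl identifier without version for 62666 of 63241 rows. Positions and exon lengths came from GENCODE 29, an annotation release that may differ from that of the counts, and promoter windows from RefSeq.

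Levels are CPM of column totals. The comparison used edgeR 4.0.16 in R 4.3.3 (TMM, filterByExpr, quasi-likelihood test, intercept and group), and its code was run on simulated data. The simulated spread was smaller than that of these libraries, whose common biological coefficient of variation was 0.792. It therefore does not show how many true changes the test would find here. Alternatives were DESeq2 1.42.0, limma-voom (3.58.1), other factors and filters, a replicate block, the muscle share as covariate, and leaving out libraries. Ratios used counts plus 0.5 and exact permutation tests, and intervals cover counting error only. Depth, 30684584 to 61795990 counts, puts 1 count at 0.0162 to 0.0326 CPM. The text names all 6 members, neighbours above 1 CPM, the 3 genes of smallest p in each list of partners, and the 5 genes most like CDKN2A, CDKN2B and MTAP; RB1, E2F1, MDM2 and PRMT5 were added for their roles. Lists of cell type markers are given by their share of counts and, for squamous, fibroblast and muscle genes, their direction. Of their genes of smallest p, only LCN1, STATH, CST1, COL1A2, COL3A1 and COL6A3 are named, for their levels in single libraries. The genes downstream of ARF other than MDM2 are not reported here. The members and lists were chosen with earlier results of these data known.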

Additional observations from a re-analysis of the deposited data

Results flagged for a closer look

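Of 106 sets of 4 library values examined for 1 library far from the other 3, 12 stood out by Dixon's criterion at its 95% critical value. Chance flags about 1 in 20 groups of independent, normally distributed values. The flagged values are CPM except for 1 log2 ratio, and the sets share libraries. The 12 flags can therefore not be set against that rate. CDKN2A in control 4 was at 36.5 CPM, against 0.381 to 0.518 in the other control libraries, and CDKN2B in control 4 at 184.5 CPM, against 2.28 to 20.7. The log2 ratio of CDKN2A to CDKN2B in control 3 was -5.53, against -2.73 to -2.34 in the other control libraries. DMRTA1 in knockdown 2 was at 25.4 CPM, against 0.329 to 2.85 in the other knockdown libraries, AFF3, of the elongation complex list, at 33.5 CPM, against 1.04 to 3.84, and KLHL13 in knockdown 3 at 0.631 CPM, against 7.34 to 8.17.

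Among markers of other cell types, LCN1 in control 1 was at 66020 CPM (at most 0.308 in the other control libraries), STATH at 7447 CPM in knockdown 2 and 39.5 CPM in control 1, and CST1 at 671 CPM in knockdown 2. COL1A2 and COL3A1 in control 2 were at 5108 and 5116 CPM, against at most 893 and 501 CPM in the other control libraries. The genes of this paragraph are among the 3 of smallest p in their marker lists, over the same libraries.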

How the results depend on the processing

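No member passed the threshold under any setting run. edgeR called 0 genes in each setting except without knockdown 2 (0 to 1 gene with each library left out), and DESeq2 called 146. Same-numbered libraries did not deviate together (correlations -0.7 to -0.37), so the numbers do not pair them, and the replicate block called 0 genes. The CDKN2A log2 fold change, 0.01 by edgeR, was 1.30 with limma-voom, 2.09 with the replicate block, -0.01 with DESeq2, -0.40 with library totals, -0.06 with no filter, -1.19 with the muscle share as a covariate and -0.01 without the libraries with over 1% of muscle or gland counts. KLHL9 was at -0.07 with limma-voom, -0.06 with library totals, -0.02 with no filter, -0.06 with the replicate block and -0.59 without the muscle or gland libraries, MLLT3 at 0.14 with the muscle covariate, and CDKN2B-AS1 at 0.43 with limma-voom, 0.02 with RLE factors and 0.60 with the replicate block. The cause was not tested. CDKN2B and MTAP kept their signs in all 17 alternatives each. The levels per squamous counts, with every denominator, were chosen after seeing the data.

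Leaving out 1 library at a time gave log2 fold changes between -0.58 and 4.38 for CDKN2A, 1.16 to 4.78 for CDKN2B, -0.50 to 0.47 for CDKN2B-AS1, -1.20 to -0.19 for MTAP, -0.24 to 0.26 for KLHL9 and -0.57 to 0.07 for MLLT3. The difference in log2 ratio ran from 0.99 to 3.48 for CDKN2A to MTAP and from -2.24 to -0.89 for CDKN2A to CDKN2B. With a pseudocount of 0.1 the window medians were -0.07, 0.12 and -0.22 in knockdown 1, 2 and 4 and -0.42, 0.95 and -0.57 in control 1, 2 and 3. With genes of at least 1 CPM they were -0.13 in knockdown 2 and -0.50, 0.98 and 0.85 in control 1, 2 and 4. Of the 5 genes most like CDKN2A, 3 remained with a pseudocount of 0.1 and 2 with TMM-scaled CPM. The 14 to 33 counts of CDKN2A in its 5 lowest libraries limit comparisons among them.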
